A study of Saccharomyces cerevisiae with 6 samples.

Results

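The levels described here are those of replicate 1 of the M475R strain, the one deeply sequenced library of a budding yeast RNA-seq series. The library was chosen for its depth and not by the level of any gene, and it is 1 of 6 samples in the series, of which 5 have levels. Its table of counts and FPKM (fragments counted for a gene, scaled for its length and for the library total) gives 6023 genes, and the deposited tables together list 6032, all of which are ranked below.

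The series compared 3 strains of Saccharomyces cerevisiae: wild-type ASK10 (WT), a deletion of ASK10, and a strain with the M475R substitution in ASK10 (M475R). All 3 groups grew in Sc-ura, a medium without uracil, that held glucose at 20 g/l. Ask10 is one of the proteins that control Fps1, the channel through which yeast releases glycerol. The labels do not state mating type, ploidy, growth phase, the number of clones or whether the allele sat on a plasmid, and no comparison between strains is made here.

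Yeast in ample glucose ferments even with oxygen present: glucose is split by glycolysis, pyruvate is turned into ethanol, and genes for other carbon sources and for much of respiration are repressed. A fast-growing cell spends a large part of its transcription on ribosomes and on the enzymes of this pathway. Many yeast enzymes exist as isozyme pairs left by an ancient genome duplication, and the members of a pair are often used under different conditions.

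M475R replicate 1 held 4155203 expected counts. The other 4 libraries, M475R replicate 2 among them, held 51576 to 117680 and were 35.3 to 80.6 times shallower. In replicate 1 the median gene had 275 counts, which gives an exact 95% Poisson interval of 88.5% to 113% of the level. In replicate 2, with 71228 counts, the median gene had 4. A count of 3, taken as the floor of detection, stood for 0.656 FPKM at the median gene length of 1101 bases in replicate 1 and for 38.3 FPKM in replicate 2. Intervals and floors throughout reflect counting error alone, and values of 1 library carry no replicate error. PCR can copy a molecule many times, so reads are not all separate molecules and the intervals may be too narrow.

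The shallow M475R library served as the check of the deep one. No gene was called different: of 5702 genes tested, 0 had an adjusted p under 0.05 (0% called) by a two-sided exact binomial test of rounded counts with Benjamini-Hochberg adjustment, and 215 (3.77%) had an unadjusted p under 0.05. The smallest unadjusted p in that exact test was 0.000413, for MTQ2, a methyltransferase of the translation release factor, which had 81.5 FPKM in replicate 1 and 274.5 in replicate 2. A chi-square test over 2876 genes gave 1.02 per degree of freedom (p = 0.182). No difference beyond the sampling noise was thus detected between the M475R libraries, which were counted as 1 sample: replicate 2 checks the counting and gives no biological spread. Because the median gene had 4 counts in replicate 2, the test per gene could miss large differences in single genes. Over the 1573 genes with 10 or more counts in replicate 2, FPKM ranks gave a Spearman correlation of 0.971 across genes, which are not independent replicates. Among the 85 genes with 100 or more counts there, the share of counts in replicate 2 over that in replicate 1 had a median of 1.01 and ran from 0.871 to 1.18 between the 5th and 95th percentiles.

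**Figure D1:**
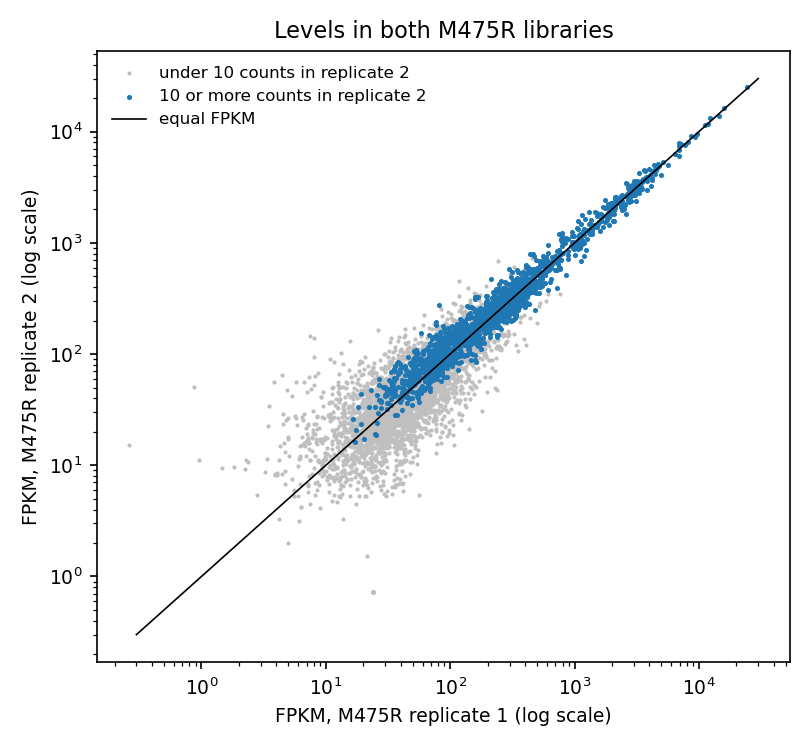
FPKM of each gene in M475R replicate 1 (x axis, log scale) and replicate 2 (y axis, log scale), for genes read in both libraries; blue points have 10 or more counts in replicate 2 and the line marks equal FPKM. The 1573 blue points lie along the line, while the grey points of genes with fewer counts scatter widely around it.

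Transcript levels were steeply graded. Shares and ranks are those among the listed genes. Of 6021 protein-coding genes in the reference, 5512 had a listed level, and ADH1, ENO2 and TEF1 are among those not analysed here. The single highest gene held 2.02% of all FPKM, the 10 highest held 10.4%, the 100 highest 37.9% and the 1000 highest 77.2%. The 175 highest genes together held as much FPKM as all the others, and the genes below the median held 6.39%. The median gene stood at 53.0 FPKM, the 25th and 75th percentiles at 25.7 and 119.6, and the 95th percentile of 578 was 126 times the 5th percentile of 4.61. The highest gene, TDH3, lay 458 times above the median gene. Replicate 2 gave 10.5% for its 10 highest genes, 38.1% for its 100 highest and a median of 52.0 FPKM. Counts that are not divided by length were less concentrated in the first 100 genes, with 32.6% of counts (Clopper-Pearson 95% interval 32.5 to 32.6), and needed 330 genes to match the rest.

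**Figure D2:**
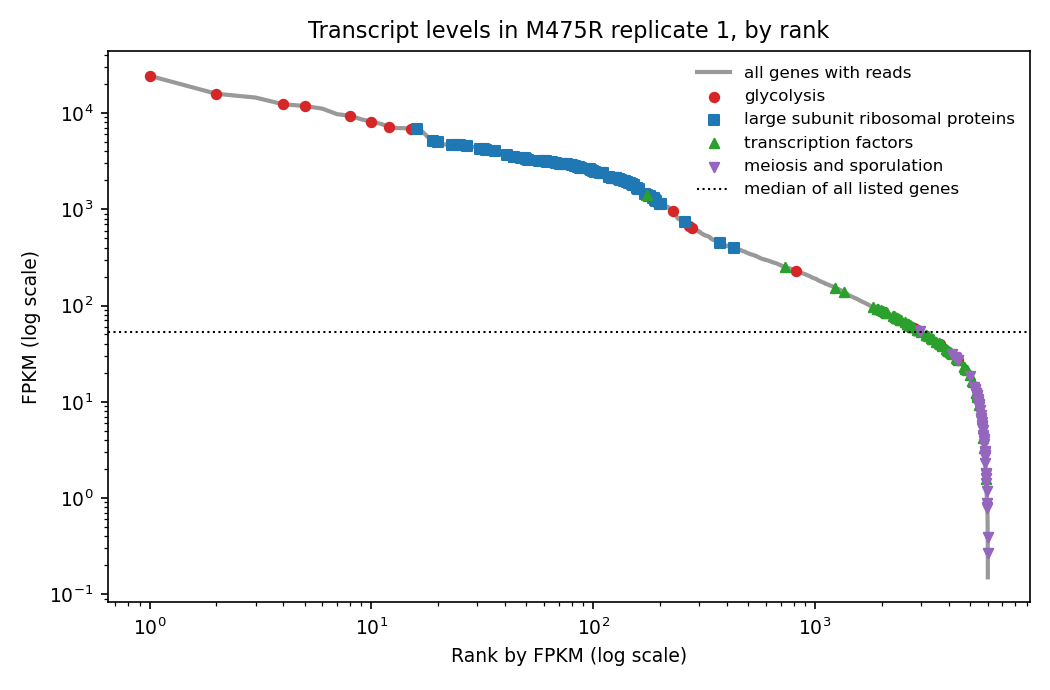
FPKM (log scale) of every gene read in M475R replicate 1 against its rank (log scale), with the members of 4 gene lists marked and the median of all listed genes, 53.0 FPKM, dotted. Glycolytic genes hold ranks 1 and 2, large subunit ribosomal proteins fill the shoulder around rank 100, transcription factors straddle the median and meiotic genes lie at the foot, apart from GSC2 at 54.4.

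The top of the ranking belonged mostly to glycolysis and the ribosome, with the cell wall gene CCW12 at rank 3. TDH3, the main glyceraldehyde-3-phosphate dehydrogenase gene, led with 24313 FPKM (95% interval 24159 to 24467) in replicate 1 and 25439 in replicate 2. FBA1, the aldolase, followed with 15823 and 16334. CCW12, a small covalently linked cell wall mannoprotein, came next with 14459 and 13873. GPM1, phosphoglycerate mutase, had 12317 and 13304.5, ENO1, an enolase, had 11819.9 and 11708, and PDC1, the main pyruvate decarboxylase, had 11094 and 11355. For each of these 6 genes the replicates differed by less than 10%.

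Of the 25 highest genes, 8 were glycolytic and 9 encoded ribosomal proteins. The ribosomal ones ran from RPS31, whose product is made as a fusion with ubiquitin, at 8590 FPKM to RPL1B at 4599, and included RPL10 (6892), RPL28 (5123), RPL25 (4954), RPS12 (4656) and RPL30 (4607). HYP2, which encodes the translation factor eIF5A, had 6951 FPKM. The remaining 5 places went to identifiers without an entry in the reference gene table, described at the end. In replicate 2, the 10 highest genes were the same 10, and 23 of the 25 highest and 92 of the 100 highest were shared.

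Ranked by counts in place of level, long genes moved up. TDH3 (95906 counts), PDC1 (75928), FBA1 (67781) and ENO1 (62204) led, and the first 10 also took in PMA1, the plasma membrane proton pump, with 34809 counts and YEF3, the fungal elongation factor 3, with 34058. By FPKM these last genes ranked only 63rd and 95th, at 3080.2 and 2644.

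Within glycolysis the lower part of the pathway was far more abundant than the upper part. The 18 glycolytic genes with a level held 8.41% of FPKM and 10.5% of counts. Summed over isozymes, the 3 steps from glucose to fructose bisphosphate had 1487 FPKM (hexose phosphorylation), 1443 (glucose-6-phosphate isomerase, PGI1) and 1321 (phosphofructokinase). From aldolase to pyruvate kinase the sums ran from 6919.8 to 32494, the highest being glyceraldehyde-3-phosphate dehydrogenase with 2.70% of all FPKM. The lowest of the lower steps, pyruvate kinase, was thus still above every upper step. In replicate 2 the upper steps summed to 1424, 1439 and 1303 and the lower ones to 6881 or more, in the same order of upper and lower. The enolase sum rests on ENO1 alone. Its near-identical copy ENO2 was not analysed here, so reads shared by the pair may sit in the ENO1 value.

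**Figure D3:**
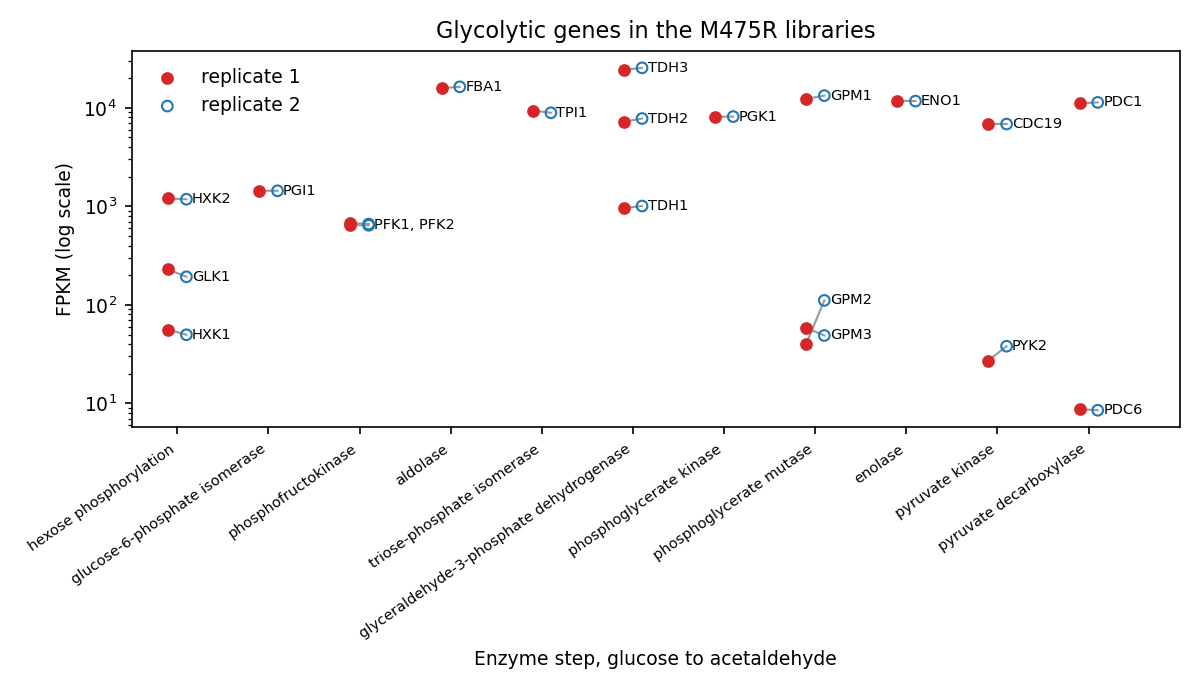
FPKM (log scale) of each glycolytic gene and of the pyruvate decarboxylase genes, by enzyme step from glucose to acetaldehyde; filled points are M475R replicate 1, open points replicate 2, joined by a line for each gene. The genes of hexose phosphorylation, glucose-6-phosphate isomerase and phosphofructokinase all lie below 1500, whereas the main gene of each later step lies between 6843 (CDC19) and 25439 (TDH3).

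At most steps a single isozyme gene carried the level. TDH3 stood 3.37 times (exact binomial 95% interval 3.32 to 3.41) above TDH2 and 25.4 times (24.5 to 26.2) above TDH1, but the counts of these near-identical copies were partly not whole, so reads may have been split between them. CDC19, the main pyruvate kinase, stood 253 times (217 to 296) above PYK2. HXK2, the hexokinase of growth on glucose, stood 21.4 times (19.2 to 24) above HXK1 and 5.25 times (4.95 to 5.56) above the glucokinase GLK1. GPM1 stood 303 times (258 to 359) above GPM2, a homologue without clear mutase activity, but 118 times (56.9 to 294) in replicate 2, from 7 counts of GPM2. The main gene was the higher one in replicate 2 for each of these pairs. Phosphofructokinase, by contrast, is an enzyme of paired subunits, and PFK2 was at 0.953 times (0.923 to 0.983) the level of PFK1.

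The ethanol branch held a very uneven pair. PDC1 had 75928 counts and PDC6, a pyruvate decarboxylase isozyme of little use in glucose, had 60, a ratio of 1265 (983 to 1658). Among alcohol dehydrogenases with a level, ADH4 had 1047 FPKM, the mitochondrial ADH3 528 and ADH5 50.9. PDC5, ADH1 and ADH2 were not analysed here, so the list is without its best known members. On the way from acetaldehyde to acetyl-CoA, the cytosolic aldehyde dehydrogenase ALD6 had 1471 FPKM, and the acetyl-CoA synthetase ACS2 stood 46.6 times (38.3 to 57.3) above ACS1, the isozyme repressed by glucose, and 24.7 times (8.12 to 123) in replicate 2.

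Hexose transporters, which bring glucose into the cell, were low by comparison and led by the carriers known for high glucose. HXT3 had 746 FPKM in replicate 1 and 821 in replicate 2, and HXT1 338 and 404. Next came HXT4 with 63.1 and HXT2 with 30.9 FPKM. The glucose sensors RGT2 and SNF3 had 22.02 and 8.18 FPKM. HXT6 and HXT7, near-identical high-affinity carriers, were listed with equal counts at 13.98 FPKM each, and HXT10 had 1 count. The list median was 10.5 FPKM over 15 members, below the 53.0 of all genes, and HXT3 and HXT1 did not overlap with any other member in their 95% intervals.

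Genes for carbon sources other than glucose were near the foot of the ranking. The 7 galactose genes had a median of 6.40 FPKM: the enzymes GAL1, GAL10 and GAL7 had 6.40, 6.20 and 4.35, their activator GAL4 11.6 and the repressor GAL80 54.4. Gluconeogenesis and the glyoxylate cycle had a median of 9.45 over 12 genes, and 21.7 in replicate 2, where 6 of them reached 3 counts. FBP1, fructose-1,6-bisphosphatase, had 5.31, PCK1, phosphoenolpyruvate carboxykinase, had 7.20, MLS1, malate synthase, had 3.27 and ICL1, isocitrate lyase, had 28.2. CIT2, the peroxisomal citrate synthase, was the highest of that list at 338 FPKM. The list of fatty acid beta-oxidation had a median of 13.7 over 14 genes, and maltose use had 0.264 times the median of all genes over 9. Every member of these 4 lists with a level had 3 or more counts.

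Genes of the mitochondrion were well above those. The tricarboxylic acid cycle had a median of 168 FPKM over 17 genes, from CIT3, a minor citrate synthase, at 9.36 to ACO1, aconitase, at 1095. Of the NAD-dependent isocitrate dehydrogenase subunits, IDH1 was at 0.688 times (0.654 to 0.724) the level of IDH2 in replicate 1 but at 1.24 times (0.791 to 1.94) in replicate 2, so the order within this pair was not settled. CIT1, the mitochondrial citrate synthase, was at 0.642 times (0.597 to 0.690) the level of CIT2. Subunits of ATP synthase had a median of 211 FPKM, those of the bc1 complex with cytochrome c 285 and those of cytochrome c oxidase 153, or 89.1 in replicate 2. The aerobic forms led their pairs: CYC1 stood 168 times (95.8 to 325) above CYC7, from 12 counts of the latter, and COX5A 6.46 times (5.04 to 8.39) above COX5B.

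Ribosomal protein genes formed the broadest block of high levels. All 128 with a level ranked within the first 500 genes, and 67 were among the first 100. Together they held 28.1% of FPKM and, being short, 14.7% of counts. The median was 2419 FPKM for 74 large subunit genes, from RPL22B at 394 to RPL10 at 6892, and 2659.9 for 54 small subunit genes, from RPS14B at 555 to RPS31 at 8590. Replicate 2 gave medians of 2337 and 2671. The combined median was 9.76 times that of the 71 mitochondrial ribosomal protein genes, 264 FPKM, which ran from RSM22 at 73.5 to MRPS12 at 546.

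Most cytosolic ribosomal proteins are encoded by a pair of duplicate genes, and 50 such pairs had both levels. The median ratio of the higher to the lower copy was 1.56, and 31 pairs were within 2-fold of equality. The A copy was higher in 26 pairs and the B copy in 23, and 1 pair was equal. Among the most uneven pairs were RPS14A over RPS14B, 4433 against 555 FPKM or 7.98 times (7.42 to 8.58), and RPL22A over RPL22B, 2353 against 394 FPKM or 5.97 times (5.43 to 6.56). In replicate 2 these ratios were 7.63 and 11.3, and the same copy was the higher one in 46 of the 49 unequal pairs. In 17 pairs the counts were not all whole, so reads may have been divided between the copies and their ratios are uncertain. The equal pair, RPS8A and RPS8B, is one of those and was listed at 3186 FPKM each. RPL41A, RPL41B, RPL4A and RPL4B were not analysed here.

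The other translation lists had medians below the ribosome, though some elongation factors did not. HYP2 (6951 FPKM), EFB1, an exchange factor of elongation factor 1 (2931), and YEF3 (2644) lay above the combined ribosomal protein median of 2577, while the elongation list as a whole had a median of 383 over 9 genes. The alternate forms of HYP2 and YEF3 were far lower. HYP2 stood 4053 times (1386 to 19654) above ANB1, the eIF5A of anaerobic growth, from 3 counts of the latter. YEF3 stood 351 times (288 to 433) above HEF3, which had 97 counts, or 576 times (103 to 22789.8) in replicate 2. Initiation factors had a median of 304 FPKM over 26 genes, led by TIF1, the helicase eIF4A, at 2161. The 20 aminoacyl-tRNA synthetase genes had a median of 294 within a narrow range of 159 (CDC60) to 529 (ARC1, a cofactor of these enzymes). Ribosome biogenesis factors had a median of 104 FPKM over 79 genes, with NOP1, fibrillarin, highest at 599.7. TEF1, TEF2, EFT1 and EFT2 were not analysed here.

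Chaperones ranged widely. CPR1, a cytosolic prolyl isomerase, had 2882 FPKM and HSP82, a form of Hsp90, had 1116. HSP10 (2015), SSC1 (1385) and HSP60 (1326), which fold proteins in the mitochondrial matrix, led the mitochondrial list. The stress-inducible SSA4 and SSA3 stood at 52.5 and 27.8, near or below the median gene, whereas the small heat shock protein HSP26 had 231, HSP12 209 and the disaggregase HSP104 201. SSA1, SSA2, SSB1, SSB2 and HSC82 were not analysed here. Subunits of the 20S proteasome had a median of 437 FPKM and those of its 19S cap 334.

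At the cell surface a few products dominated. Behind CCW12, the cell wall list of 21 genes was led by CWP2 (3611 FPKM), SED1 (2325) and UTH1 (1638), and it ended with DAN1, a mannoprotein of anaerobic cells, at 2 counts. Several members of this list, including the flocculins FLO1, FLO5 and FLO9, were not analysed here. Of 35 pumps and carriers, PMA1 had 3080.2 FPKM and stood 382 times (312 to 473) above its isoform PMA2. ZRT1, the high-affinity zinc carrier, had 2348, ITR1, the inositol carrier, 1108 and the drug efflux pump PDR5 943. The phosphate carriers PHO84 and PHO89 had 18.8 and 5.16. The list median was 83.2, so these few genes lay far from the typical carrier.

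Biosynthetic genes sat in the middle to upper range. The 84 genes of amino acid synthesis had a median of 168 FPKM, from GDH3, a minor glutamate dehydrogenase, at 16.9 to SAM2, S-adenosylmethionine synthetase, at 1833, and 73 of them were above the median of all genes. Ergosterol synthesis had a median of 333 over 26 genes, led by ERG25 at 1144, and purine synthesis 182 over 19. In uracil synthesis, URA3, orotidine-5′-phosphate decarboxylase and the common selection marker, had 1684 FPKM (1639 to 1730.1) in replicate 1 and 2089 in replicate 2. The next gene of that pathway, URA5, had 412 and 402, so the intervals of the 2 genes did not overlap in either library. The other genes often used as markers were lower, with TRP1 at 140, HIS3 at 70.9 and LEU2 at 31.9. LEU2 rests on 43 counts over a listed length of 378 bases.

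Enzymes against oxidants included some of the highest genes outside the ribosome and glycolysis. AHP1 and TSA1, both peroxiredoxins, had 3731 and 2663 FPKM, and SOD1, the cytosolic superoxide dismutase, had 2991. TSA1 stood 115 times (87.3 to 154) above TSA2 and SOD1 8.71 times (8.11 to 9.37) above the mitochondrial SOD2. In replicate 2 the latter ratio was 20.9 (9.78 to 53.4), from 7 counts of SOD2. The catalases CTT1 and CTA1 were at 28.2 and 17.5. The 8 core histone genes, which package DNA, ran from HTA1 at 1127 to HHT2 at 2259. The centromeric histone CSE4 had 74.3.

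Regulators were close to the typical gene. The 75 transcription factors with a level had a median of 53.4 FPKM, 1.01 times that of all genes, and 38 were above it. GCN4, the activator of amino acid synthesis, was 174th of all genes with 1397 FPKM (1357 to 1438) in replicate 1 and 1395 in replicate 2. It was the one factor among the first 500 genes, and HAC1, of the unfolded protein response, followed with 250. The lowest was DAL80, a repressor of nitrogen use, with 5 counts. Cyclins and cell cycle kinase genes had a median of 60.2, from CLB6 at 13.2 to SIC1, the inhibitor of the kinase, at 179.8. MAP kinase cascade genes had a median of 46.2, with HOG1, the kinase of the osmotic response, at 229 and SLT2, the kinase of the cell wall response, next at 77.2.

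ASK10 itself had 567 counts or 40.03 FPKM (36.8 to 43.5) in replicate 1 and 4 counts or 16.5 FPKM (4.49 to 42.2) in replicate 2, intervals that overlap. Its level was 0.755 times that of the median gene. Its paralogue RGC1 had 36.2 and the channel FPS1 63.1. In glycerol synthesis, the phosphatase GPP1 had 2321 FPKM and stood 6 times (5.64 to 6.40) above GPP2, and GPD1, glycerol-3-phosphate dehydrogenase, had 402 and stood 1.81 times (1.68 to 1.95) above GPD2. The glycerol importer STL1 had 4.62. The regulator and its channel were thus near the middle of the ranking, and the pathway's GPP1 was 115th.

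Markers of mating type were read at different levels. Of 7 genes expressed in MATa cells, STE2, the alpha-factor receptor, had 295 FPKM, AGA2, an agglutinin subunit, 122, and both STE6, the a-factor exporter, and BAR1, a protease that degrades alpha-factor, 85.7. ASG7 had 18.7. The a-factor genes MFA2 and MFA1 had 3 counts and 1 count. They are 117 and 111 bases long, and the 11 reference genes under 150 bases had a median of 10.6 FPKM, so the part of length in those counts was not tested. Of the genes expressed in MATalpha cells, the agglutinin SAG1 had 17.3, the a-factor receptor STE3 14.1 and the pheromone MF(ALPHA)2 12.4, all below the median gene. MF(ALPHA)1 was not analysed here. Genes expressed in haploids of either type were led by the G protein gamma subunit STE18 with 146. HO, the mating-type endonuclease, followed with 135, then STE4 with 120.5 and GPA1 with 107.0. The 9 haploid genes with a level had a median of 70.6 FPKM in replicate 1 and 51.2 in replicate 2. In replicate 1 only 5 of the 9 were above the median of all genes, and AXL1 was the lowest.

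The meiotic programme was among the lowest of the lists, next to galactose genes and seripauperins. Its 55 genes had a median of 6.41 FPKM, or 0.121 times that of all genes, and together held 0.0424% of FPKM. GSC2, a glucan synthase that also serves the spore wall, was the highest at 54.4. The regulators IME1 and NDT80 had 9.31 and 12.4, the double-strand break enzyme SPO11 12.4, and 4 genes had fewer than 3 counts, the lowest being CDA2, a chitin deacetylase, with 1 count. At the depth of replicate 2, 5 of the 55 reached 3 counts, against 51 in replicate 1, and the list median there was 0. The 9 seripauperins with a level, a subtelomeric family of anaerobic wall proteins, had a median of 5.99, and hypoxic genes one of 12.4 over 11. Both medians were 0 in replicate 2.

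The lower limit was set by 16 genes listed at 0, with 3 counts standing for 0.524 to 4.81 FPKM in them. Of these, 8 have a reference entry, among them VBA3, a vacuolar amino acid carrier, the seripauperin PAU13 and PRM10, a membrane protein. The highest count in any other library was 4 for VBA3 and 3.11 for PRM10, both in the deletion library. At the depth of replicate 1 these would be 141 and 109.8 counts, but the scaled values rest on very few reads. A difference between strains was not tested. At 3 or more counts, 5871 genes were detected in replicate 1 and 3985 in replicate 2. The shares of replicate 1 at the depth of replicate 2 give an expected number of 3972.

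**Figure D4:**
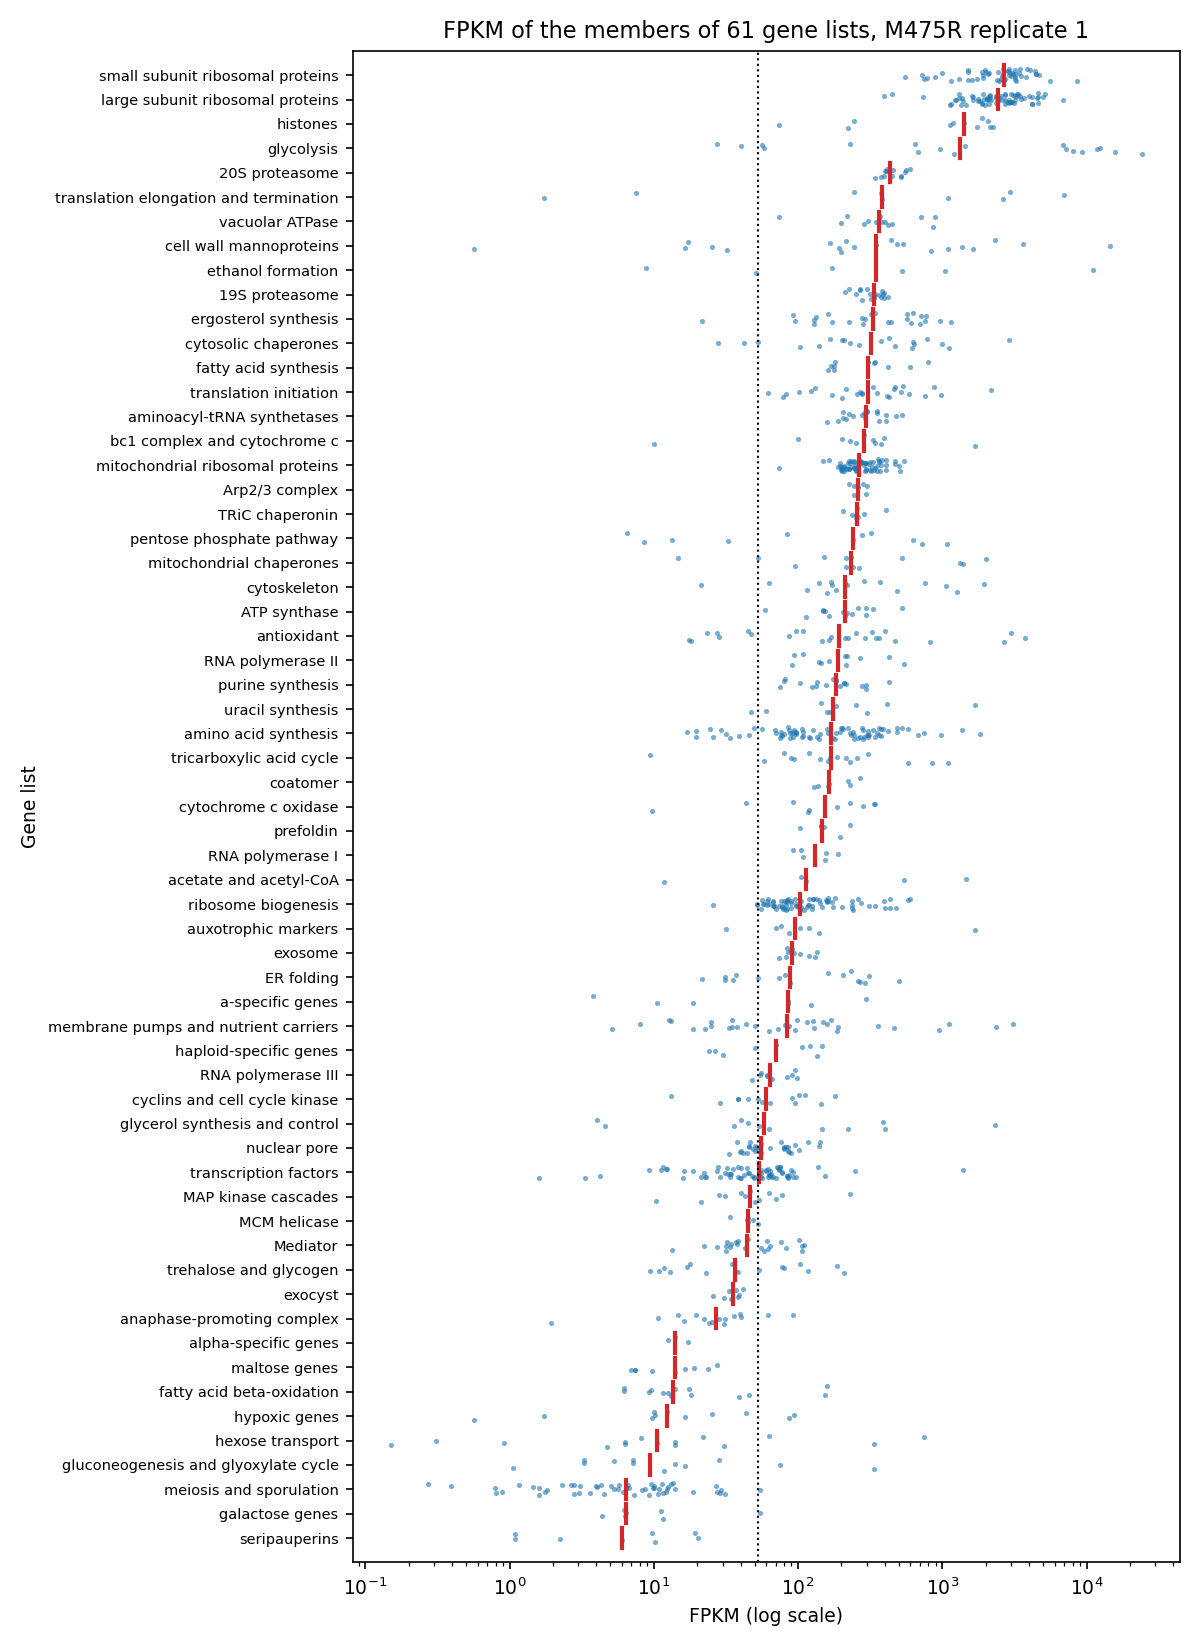
FPKM (log scale) in M475R replicate 1 of each member of 61 gene lists, 1 point per gene, with the list median as a red bar and the median of all listed genes, 53.0, dotted; members at 0 are not drawn but count in the medians. Lists are ordered by median, from seripauperins at 5.99 to small subunit ribosomal proteins at 2659.9.

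Over all 61 lists, 1201 genes had a level and held 60.1% of FPKM, and 46 lists had a median above that of all genes. The lists hold well-studied genes and are no sample of the genome.

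Subunits of a complex lay closer together than genes at large. Among the 5695 genes with 10 or more counts, the SD of log10 FPKM was 0.552, and 19 of 19 complexes had a smaller one. In replicate 1 the tightest was the Arp2/3 complex, the nucleator of branched actin, whose 7 subunits ran from ARP3 at 224 to ARC19 at 300.3 FPKM (SD 0.0479, a range of 1.34-fold). The MCM helicase of DNA replication (SD 0.0655), the exocyst of secretion (0.0670) and the 20S proteasome (0.0725, from PRE10 at 344 to PRE1 at 599) followed, at medians of 45.2, 35.6 and 437 FPKM. This order did not hold in replicate 2, where the SDs cover only genes with 1 or more counts there and leave out unread subunits. They were 0.127 for Arp2/3, 0.358 for MCM, 0.281 for the exocyst and 0.122 for the 20S proteasome. Within that filter 19 of 19 complexes were again below all genes. The widest were the complexes whose lists hold alternate forms or special subunits. First came the bc1 complex with cytochrome c (0.539, with CYC1 169 times CYC7). In replicate 2 its SD was 0.291, but without CYC7, which had 0 counts there. The anaphase-promoting complex (0.371, from the meiotic activator AMA1 at 1.94 to APC11 at 93.0), cytochrome c oxidase (0.298) and the vacuolar ATPase (0.268, from STV1, the Golgi form, to VMA3) followed. The filter of 10 counts left out COX26, the lowest gene of the cytochrome c oxidase list at 9.76 FPKM. Keeping all members with 1 or more counts moved the SD of 1 complex, so the oxidase's place in this order may rest on the filter. Both subunits of fatty acid synthase were likewise close, with FAS1 at 0.825 times (0.801 to 0.849) FAS2.

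Of 36 isozyme or subunit pairs, 30 had both levels. The gene listed first, usually the better known form, was higher with an interval above 1 in 26 and lower with an interval below 1 in 4. In 14 pairs the ratio was above 10. In the pentose phosphate pathway, which makes NADPH and ribose, GND1 stood 110.1 times above GND2, TAL1 80.1 times above NQM1 (44.7 in replicate 2) and TKL1 73.5 times above TKL2. HMG1, the main HMG-CoA reductase of sterol synthesis, stood 5.95 times above HMG2 (9.25 in replicate 2), and TEF4 2.93 times above CAM1, both gamma subunits of the elongation factor 1B. Some further pairs were closer to equality: SHM2 over SHM1, the cytosolic and mitochondrial serine hydroxymethyltransferases, at 1.32 (1.22 to 1.42) but 2.67 (1.19 to 6.56) in replicate 2, TUB2 over TUB1, beta and alpha tubulin, at 1.29 (1.22 to 1.37), TUB1 over TUB3 at 1.70 and LSC1 over LSC2, subunits of succinyl-CoA ligase, at 1.87. The replicate 2 interval held the replicate 1 ratio in 27 of the 30, the exceptions being GPM1 over GPM2, IDH1 over IDH2 and SOD1 over SOD2.

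Levels fell with length beyond 450 to 600 bases. The 500 highest genes had a median coding length of 601 bases, against 1155 for the rest. Over 5327 reference genes the Spearman correlation of length and FPKM was -0.377, a description across genes that share 1 library and its length scaling. Median FPKM was 110.4 for genes of 150 to 300 bases, 96.5 for 300 to 450, 114 for 450 to 600, 85.2 for 600 to 900, 63.1 for 900 to 1500 and 30.1 for 3600 or more. Without ribosomal proteins the first 4 of these were 87.9, 73.2, 103 and 82.7, so levels did not rise further below 450 bases. Below 150 bases the median was 10.6 over 11 genes. PMP1 and PMP2, small proteolipids of the plasma membrane proton pump, had 4 and 23 counts, while PMA1 had 34809.

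Genes at chromosome ends were low. By gene order in the reference, the first 5 genes at each end came to 160, of which 60 had a level. Their median was 16.4 FPKM, and 9 of them (15%) were above the median of all genes. The median was 23.8 for genes 6 to 10 from the end, 49.4 for genes 11 to 20 and 57.9 for genes from the 41st inward, of which 53.5% were above the median of all genes. YFL066C, a helicase-like gene of a repeated subtelomeric family whose copies may share reads, was the highest of the end genes with 805 FPKM. Among genes without a symbol, the highest were YDR524C-B with 3473 FPKM, rank 45, and YNL208W with 1004. Their replicate 2 levels were 3613 and 975.

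Neighbouring genes had weakly similar levels. The Pearson correlation of log10 FPKM across 4871 adjacent pairs was 0.0968. It was 0.0279 for genes 2 apart, -0.0105 for genes 5 apart, -0.0144 for genes 10 apart and again 0.0279 for genes 20 apart. Divergent neighbours, which share the space upstream, had 0.144 over 1266 pairs, tandem ones 0.0825 and convergent ones 0.0752. These are descriptions across genes of 1 library.

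Identifiers without a reference entry took a visible place in the ranking. There were 517 of them, with a median of 23.8 FPKM against 55.7 for matched identifiers, yet they held 8.21% of FPKM, and 31 were among the first 500 genes. Yeast systematic names number genes along the chromosome and end in a letter for the strand. YKL153W, rank 7 with 9715 FPKM, is next by number to GPM1 (12317). YEL034C-A (7709) is next to HYP2 (6951), YCR013C (6966) to PGK1 (8119), YAL037C-B (6368) to CDC19 (6893) and YLR076C (4748) to RPL10 (6892). Each of these 5 has the opposite strand letter to its neighbour, and the deposited best protein match of YAL037C-B is CDC19 itself.

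The same held for most of the high ones. Of the 31 in the first 500, 30 had the opposite strand letter and 27 were within 2-fold of the neighbour's level. The opposite letter was also the more frequent one among the lower identifiers, so it is not particular to the high ones. These 31 were picked by their own high level, which favours closeness to a high neighbour, so the 27 do not describe all 517. Beside a neighbour of 1000 FPKM or more, 39 such identifiers had a median of 534, against 23.5 beside other neighbours. That median hides a split, because many were close to the neighbour's level and many far below it. They ran from YEL010W at 0, beside GCN4, to YKL153W. YNL179C was at 0.00675 times RPS3 and YMR141W-A at 0.00707 times RPL13B, both with the opposite strand letter. Across the 489 with a neighbour, the Spearman correlation with the neighbour's level was 0.435, and it was 0.113 for 469 matched identifiers without a symbol. The neighbour was taken as the highest on either side, which favours high values in both sets. Whether counting used the strand is not stated in the sources used here, and without it reads of overlapping genes on opposite strands cannot be told apart. The levels of these identifiers are therefore uncertain, and leaving all 517 out raises the share of the 10 highest genes from 10.4% to 11.1%.

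**Figure D5:**
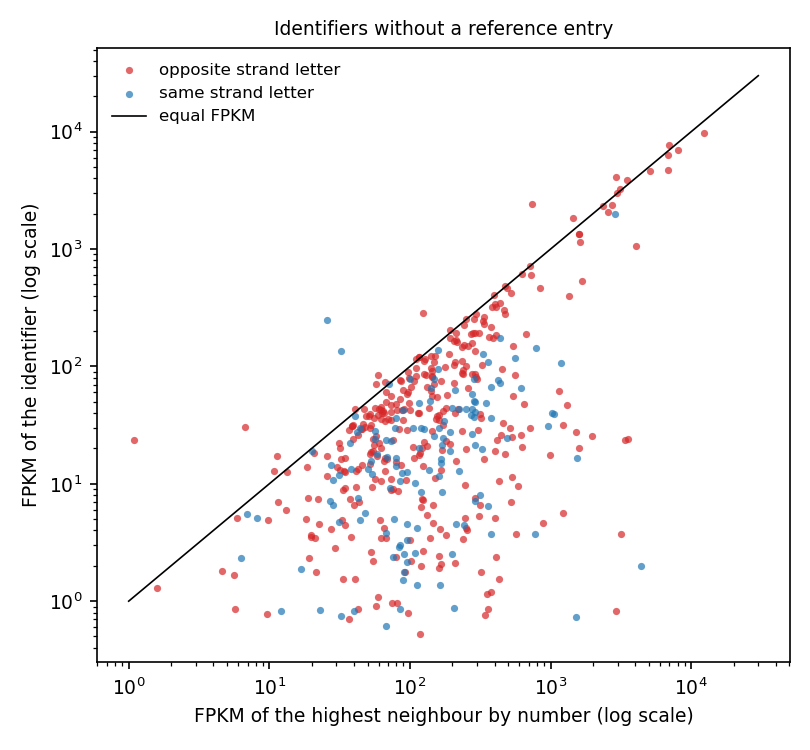
FPKM in M475R replicate 1 of each identifier without a reference entry (y axis, log scale) against that of its highest neighbour by systematic number (x axis, log scale), coloured by whether the strand letters differ; the line marks equal FPKM and identifiers at 0 are not drawn. Most red points (opposite strand letter) of identifiers that are themselves above 1000 FPKM lie near the line. The points of lower identifiers spread widely, mostly beneath the line, also beside neighbours above 1000 FPKM.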

How the data were processed

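Per the labels' protocols, mRNA was isolated and broken up, and cDNA of its fragments was size-selected and amplified. The submitters' processing notes name the aligners BWA and Bowtie. The annotation, genome build, counter and software versions are not given in the sources used here. Identifiers end in the strain name CEN.PK113-7D. The deposited tables give an expected count for each gene and library, not whole in 179 genes, per the file headers. They also give the authors' FPKM, where 0.001 stands for a gene at 0 and was read as 0. Compared with counts per kilobase, the deposited FPKM shortens a gene by a median of 47.1 bases (3653 genes). Lengths are multiples of 3 in 99.7% of genes and are called coding lengths.

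From the 7 full tables, columns were assigned by their names, and 31 other per-sample columns were not used. Deletion replicate 1 was not analysed here. Total counts were 4155203 and 71228 in the M475R libraries. Locus tags were looked up in a gene table of S288C (assembly R64), which served only for names and gene order: 5515 matched, 5034 of them with a symbol, and 517 did not. Shares carry Clopper-Pearson intervals, levels exact Poisson intervals and ratios exact conditional binomial intervals, all at 95%.

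The M475R libraries were compared by an exact binomial test on rounded expected counts over genes with 10 or more pooled counts, after the script was tested on simulated data. In that simulation, changes were planted only in genes with higher expected counts in replicate 2, so it does not cover the sparsely counted genes. The labels do not say whether these libraries came from separate cultures. Named genes are the 25 highest by FPKM with 100 or more counts, the 10 highest by counts, the ends of each list, the fixed pairs, mating-type genes and ASK10. Others were added after their values were seen, and a few genes that the rule names are not reported here. Members, lists and pairs were chosen with earlier results of these data known. Paralogues, pathway sums, length, neighbours, chromosome ends and unmatched identifiers were added after the files were read and are described without tests. The alternatives were other level measures, filters and scalings, and replicate 2 alone. Tools were Python 3.11.15, numpy 2.4.6, pandas 2.3.3, scipy 1.17.1, matplotlib 3.10.9 and, for TMM scaling factors only, edgeR 4.0.16 in R 4.3.3.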

Additional observations from a re-analysis of the deposited data

How the results depend on the processing

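The share of FPKM in the 10 highest genes, 10.4%, became 10.7% from counts per kilobase (also with both M475R libraries pooled) and 11.1% from genes of 300 bases or longer. That of the 100 highest, 37.9%, became 37.6%, 37.6% and 40%, and that of all lists together, 60.1%, became 55.7% as counts, 59.9% per kilobase and 60.4% from the longer genes. With reference identifiers only, chosen after seeing the data, they were 11.1%, 38.6% and 65.5%. Replicate 2 alone gave 10.5%, 38.1% and 60.2%, and it turned IDH1 over IDH2 from 0.688 to 1.24; the cause was not tested. Tallies stayed within 1.5 times under the alternatives run: genes that hold as much FPKM as the rest, genes detected, lists above the median, pairs with the first gene higher, complexes below all genes and calls between the libraries, which were 0 also with TMM scaling and without a count filter. Single pair ratios, complex SDs and low list medians moved by over 1.5 times in replicate 2, several at values given beside them, and the cause was not tested. No paired analysis was possible because only the M475R libraries were used and no test between strains was made. Depth limits replicate 2, where 3 counts stand for 38.3 FPKM at the median gene length of 1101 bases and for less in longer genes.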
